A study of Mus musculus with 31 samples.

Results

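The collagen genes of the mouse brain were followed in 31 mice after oleic acid or serum injection. Genes were taken by name (Col, a number, the letter a and a chain number), which gave 41 collagen genes on 63 probes among 36161 gene names on the array. One probe stood for each gene, the one with the highest mean signal over the 31 arrays, except Col14a1, where that probe was flagged non-uniform on 1 array and the other was used. Testing needed a probe that stood well above background throughout some group, that is on all arrays of it, and 35 of the 41 passed, among 25204 genes tested. The 6 others were above background on few arrays: Col28a1 on 0 of 31, Col10a1 and Col4a3 on 1 each, Col13a1 on 4, Col6a6 on 5 and Col15a1 on 6. Of the 35 tested, Col17a1 was above background on only 7 arrays, Col8a1 on 21, Col14a1 on 22, Col5a2 on 25 and Col19a1 on 30, and the other 30 on all 31.

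The mice were 6-week-old C57BL/6 females that received 200 µl into the tail vein under xylazine and ketamine, either physiological serum (14 mice) or 1.2 µl of oleic acid for each g of the mouse (17 mice), a model of acute lung injury. The series asks how the brain responds to that injury. Whole brains were taken at 1 h (3 serum and 3 oleic acid mice), 1.5 h (3 and 3), 3 h (2 and 3), 4 h (2 and 3), 18 h (2 and 2) and 24 h (2 and 3), with 1 single-colour array per mouse and no pooling stated. No uninjected mouse is among the groups, so the injection and the anaesthesia are shared by all 12 groups. The labels number the samples as replicates and do not name litters or batches; where a number stands for no more than a repeat sample, the p-values measure only the spread between these samples.

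Collagens are built from chains that wind into a triple helix. Fibrillar collagens form the cables of the meninges and of the outer vessel wall, type IV collagen forms the sheet-like network of basement membranes beneath endothelium and pia, and type VI forms beaded filaments beside those membranes. Type XVIII is a basement-membrane collagen that carries heparan sulphate and holds endostatin in its tail, type VII forms anchoring fibrils, and the FACIT collagens attach to the surface of fibrils. By structure the 35 tested genes were 11 fibrillar, 5 type IV, 3 beaded-filament, 9 FACIT, 3 transmembrane and 2 short-chain genes, with Col7a1 and Col18a1. In whole-brain RNA, fewer cells of a type and less RNA per cell cannot be told apart.

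The promoters of 4 collagen genes are shown because they hold both sides of the pattern described next: Col6a1 and Col6a2 moved together over the brains, Col18a1 and Col7a1 moved together and opposite to them, and Col18a1 lies on chromosome 10 with the type VI pair. Their array probes lie at mm9 chr10:76171538-76171597 (Col6a1), chr10:76058931-76058990 (Col6a2), chr10:76514926-76514985 (Col18a1) and chr9:108886861-108886920 (Col7a1). RefSeq (GRCm38.p6) windows matched 33 of the 41 genes, with 36 windows. Each run is the 250 bases before the most upstream listed start, in the direction of the gene. Capitals mark the CCAAT motif (read as ATTGG on the other strand), the GC box GGGCGG (read there as CCGCCC) and the box TATAAA (read there as TTTATA), all searched on both strands; no match overlaps another in these windows.
Col6a1: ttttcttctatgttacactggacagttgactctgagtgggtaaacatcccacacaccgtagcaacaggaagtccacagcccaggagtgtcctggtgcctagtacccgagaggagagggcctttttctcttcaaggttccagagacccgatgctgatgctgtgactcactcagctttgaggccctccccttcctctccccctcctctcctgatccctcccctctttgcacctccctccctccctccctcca
Col6a2: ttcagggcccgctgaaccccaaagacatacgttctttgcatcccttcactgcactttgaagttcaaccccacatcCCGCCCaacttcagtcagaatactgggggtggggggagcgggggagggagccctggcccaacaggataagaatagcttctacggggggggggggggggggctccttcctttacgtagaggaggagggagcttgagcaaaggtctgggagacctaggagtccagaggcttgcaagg
Col18a1: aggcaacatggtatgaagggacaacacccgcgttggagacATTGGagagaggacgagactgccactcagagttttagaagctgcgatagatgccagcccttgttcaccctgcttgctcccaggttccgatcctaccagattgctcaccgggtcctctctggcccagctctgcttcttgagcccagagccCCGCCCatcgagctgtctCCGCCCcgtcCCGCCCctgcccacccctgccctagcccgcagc
Col7a1: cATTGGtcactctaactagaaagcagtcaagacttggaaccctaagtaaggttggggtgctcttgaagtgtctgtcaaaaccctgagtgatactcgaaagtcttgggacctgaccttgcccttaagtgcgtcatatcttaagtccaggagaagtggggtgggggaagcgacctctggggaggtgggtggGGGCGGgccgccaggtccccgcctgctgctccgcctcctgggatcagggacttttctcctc
These windows lie at chr10:76726045-76726294 (Col6a1, minus strand), chr10:76623631-76623880 (Col6a2, minus), chr10:77166531-77166780 (Col18a1, minus) and chr9:108953336-108953585 (Col7a1, plus). The Col18a1 window held 3 GGGCGG matches, at 61, 43 and 33 bases before the start, and 1 CCAAT match; the Col7a1 window held 1 of each; the Col6a2 window held 1 GGGCGG match, and the Col6a1 window held none of the 3 motifs. Over all 32851 RefSeq windows of this length, 33.8% held CCAAT, 32.7% GGGCGG and 12.4% TATAAA; over the 36 collagen windows the shares were 36.1%, 58.3% and 13.9%, with a median GC content of 59.4% against 52.4%. A match describes the letters only. Col4a1 and Col4a2 start 21 bases apart on opposite strands of chromosome 8, and Col4a5 and Col4a6 start 1343 bases apart on opposite strands of the X chromosome. Col6a1 and Col6a2 start 102414 bases apart. Col18a1 has 2 listed starts, and the one nearest to Col6a1 lies 387661 bases from it. That is not the most upstream Col18a1 start, whose window is shown above.

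Signals are given as scaled log2 signal: the log2 processed intensity of the probe minus the 75th percentile of its own array, so that 0 is that percentile and a difference of 1 is a doubling. Levels are compared between arrays for 1 probe and never between probes. The 75th percentile of processed intensity ran from 306 to 813 (median 561) and the share of spots well above background from 54.3% to 76.3%; arrays correlated with each other at 0.968 to 0.995 over tested genes. One brain-region marker varied widely: Gabra6, the GABA receptor subunit of cerebellar granule cells, ran from -7.59 to 2.32, and 4 arrays lay under -6 (serum 1 h replicate 1, oleic acid 1.5 h replicate 2, serum 4 h replicate 2 and oleic acid 4 h replicate 3), with the next lowest at -3.94. Results below are given with and without those 4 arrays where they rest on them.

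Over the 31 brains, on residuals from the 12 group means, the 595 pairs of tested collagen genes had a mean Pearson r of 0.05, from -0.82 to 0.88, and 272 pairs were negative. The mean r depended on the processing, with 0.21 under normexp background correction and 0.24 with arrays scaled to their median. Correlations are descriptions over the 31 arrays, whose points share the library, the labelling and the scaling of each array. Of the pairs, 19 lay above 0.7 and 26 below -0.5. The median SD within groups was 0.25 for the collagen genes and 0.23 for all tested genes. Col16a1 had the smallest (0.10) and Col18a1 the largest (0.71) of the 35.

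**Figure D1:**
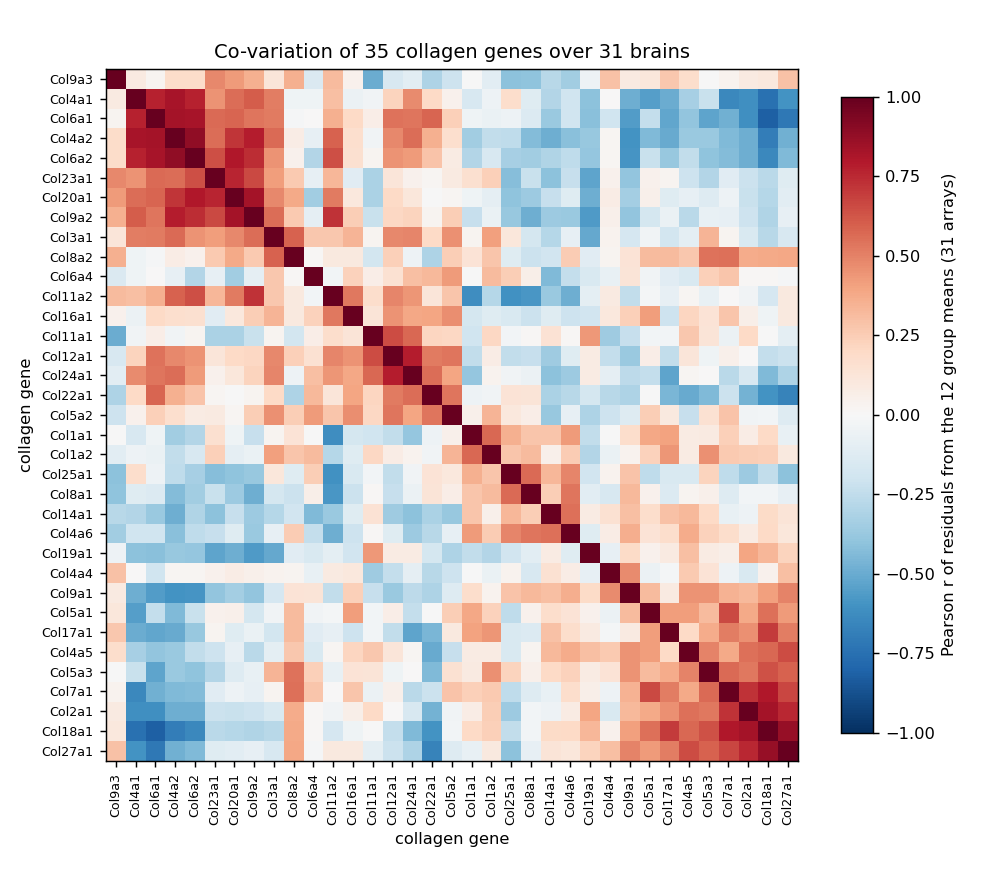
Pearson r between each pair of the 35 tested collagen genes over 31 brains, on residuals from the 12 group means, with genes ordered by average-linkage clustering on the same values. A red block at the upper left holds Col4a1, Col4a2, Col6a1 and Col6a2 and a red block at the lower right holds Col2a1, Col7a1, Col18a1 and Col27a1; the rectangles between them are blue, down to -0.82.

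One set was made up of type IV and type VI chains. Col4a1 and Col4a2, the chains of the common type IV network, and Col6a1 and Col6a2, chains of type VI, had a mean pairwise r of 0.82, with the 6 pairs from 0.77 to 0.88. The set was chosen after its values were seen and has no test. Col4a1 ran from 0.37 over a median of 0.82 to 1.19 in the 14 serum brains and from 0.44 over 0.76 to 1.25 in the 17 oleic acid brains. Col4a2 ran from 0.75 over 1.18 to 1.89 in serum and from 0.78 over 1.23 to 1.77 in oleic acid brains. The ranges of the treatments overlapped almost throughout for both genes.

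Col6a1 ran from 1.88 over 2.35 to 2.68 in serum and from 1.99 over 2.35 to 2.69 in oleic acid brains, and Col6a2 from -1.42 over -0.79 to -0.12 and from -1.58 over -0.81 to 0.12. Here too the treatments covered nearly the same range, and it was single brains that stood high or low. The mean of the 4 genes was highest in oleic acid 1.5 h replicate 1 (1.39) and serum 4 h replicate 2 (1.35) and lowest in oleic acid 3 h replicate 2 (0.41) and serum 1 h replicate 3 (0.48). The mean pairwise r was 0.79 with slide also removed and 0.84 over the 27 arrays without the 4 low in Gabra6.

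The other set held chains of different structure. Col18a1, Col7a1, Col2a1 (the cartilage fibril chain) and Col27a1 (a fibrillar chain of cartilage) had a mean pairwise r of 0.78, from 0.67 to 0.87, and this set too was chosen after its values were seen. Col18a1 ran from -1.18 over -0.07 to 0.79 in serum brains and from -1.14 over -0.01 to 0.83 in oleic acid brains. Col27a1 ran from -3.12 over -2.13 to -1.85 and from -3.05 over -2.26 to -1.77. Treatments overlapped throughout, and each gene was spread over about the same range in both.

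Col7a1 ran from -0.48 over 0.09 to 0.44 in serum and from -0.43 over 0.07 to 0.52 in oleic acid brains, and Col2a1 from -2.83 over -2.15 to -1.69 and from -2.73 over -2.14 to -1.63. The mean of the 4 genes was lowest in serum 1.5 h replicate 3 (-1.79) and oleic acid 1.5 h replicate 1 (-1.76) and highest in oleic acid 18 h replicate 2 (-0.65) and serum 4 h replicate 1 (-0.66). Both of the lowest brains lie on slide 2, whose other brain, serum 24 h replicate 2, was at -1.10. Between the sets the 16 pairs had a mean r of -0.58, from -0.82 for Col18a1 with Col6a1 to -0.43. The opposition was weaker when arrays were scaled to their median, where the mean r was -0.24. Over the 27 arrays without the 4 low in Gabra6 it was -0.55.

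**Figure D2:**
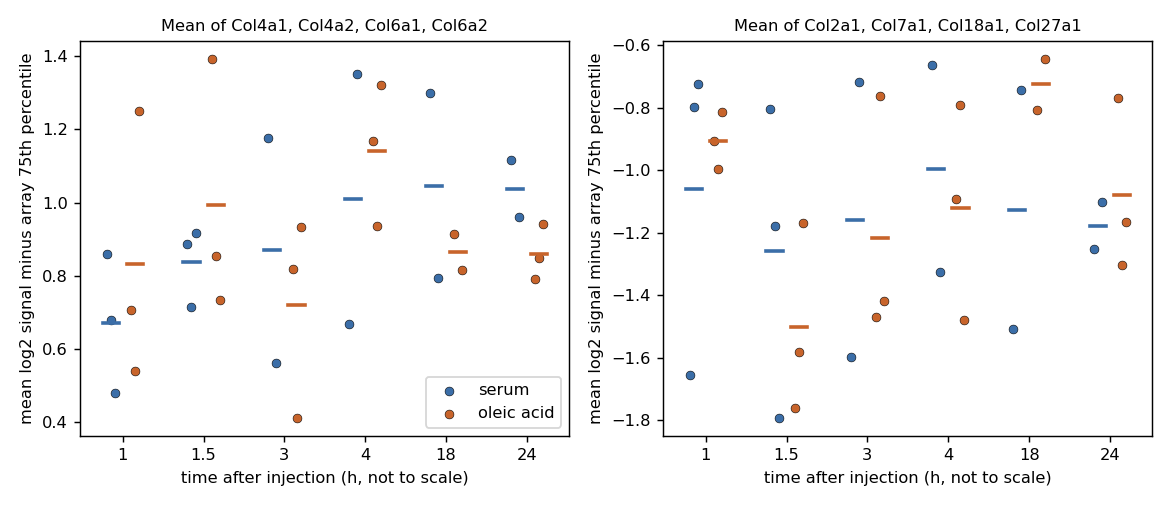
Mean scaled log2 signal of Col4a1, Col4a2, Col6a1 and Col6a2 (left) and of Col2a1, Col7a1, Col18a1 and Col27a1 (right) for each of 31 brains, by hours after injection; points are brains, bars are group means. The left set lies between 0.41 and 1.39 and the right set between -1.79 and -0.65, with serum and oleic acid brains intermixed at most times.

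Marker lists for 12 cell types, tissues and regions gave the values that moved with each set, with the list summarised as the mean of its genes that are no collagens. On residuals from the group means, the type IV and VI set had r of 0.84 with the endothelial list and 0.71 with the neuron list. With the pericyte and smooth muscle list r was 0.69, and with the meningeal and perivascular fibroblast list 0.36. With the cerebellum list r was -0.65. Over the 27 arrays without the 4 low in Gabra6 these were, in that order, 0.84, 0.71, 0.61, 0.11 and -0.71. With the skeletal muscle list r was 0.63 and with the choroid plexus list -0.56. On the values themselves r was 0.61 with the endothelial and 0.06 with the fibroblast list. All 15 endothelial and all 14 pericyte and smooth muscle markers were above background on all arrays, and the endothelial list ran from 0.44 to 1.10 in serum and from 0.58 to 0.87 in oleic acid brains. The set also had r of -0.59 with the log2 75th percentile of the array, and -0.45 on the values themselves without the 2 arrays farthest from its median. With the endothelial list, 11% of all tested genes had r above 0.6 and 2.1% above 0.8, beside 6 and 2 of the 35 collagens. Such r was thus not particular to the collagens. With the mean of the 4 genes itself, 11.2% of all tested genes had r above 0.6 and 3.30% above 0.8. The part of array intensity, of neurons and of vessels in the pattern was not tested.

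The Col18a1 set moved with the cerebellum list. It had r of 0.91 with the cerebellum list (10 genes, 8 above background on all arrays), and 0.96 over the 27 arrays. With the bone and cartilage list (7 tested genes, 4 above background on all arrays) r was 0.74, and with the choroid plexus list 0.50. With the endothelial and the neuron list it was -0.63 each. The cerebellum list ran from -1.28 to 2.64 in serum and from -1.26 to 2.56 in oleic acid brains. Col18a1 had r of 0.93 with the list and Col27a1 0.89, and 1.24% of all tested genes had r above 0.8 with it. Against Gabra6 itself, on the values of the 27 arrays above -6, Col18a1 had Pearson r of 0.91 and Spearman rho of 0.92. On the 4 low arrays Col18a1 ran from -0.94 to -0.50 (median -0.76), and on the others from -1.18 to 0.83 (median 0.23). Low Col18a1 was thus not limited to the 4 arrays: serum 1.5 h replicate 3 and oleic acid 1.5 h replicate 1 were lower still, with Gabra6 at -3.94 and -1.44. The second Col18a1 probe had r of 0.96 with the first.

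**Figure D3:**
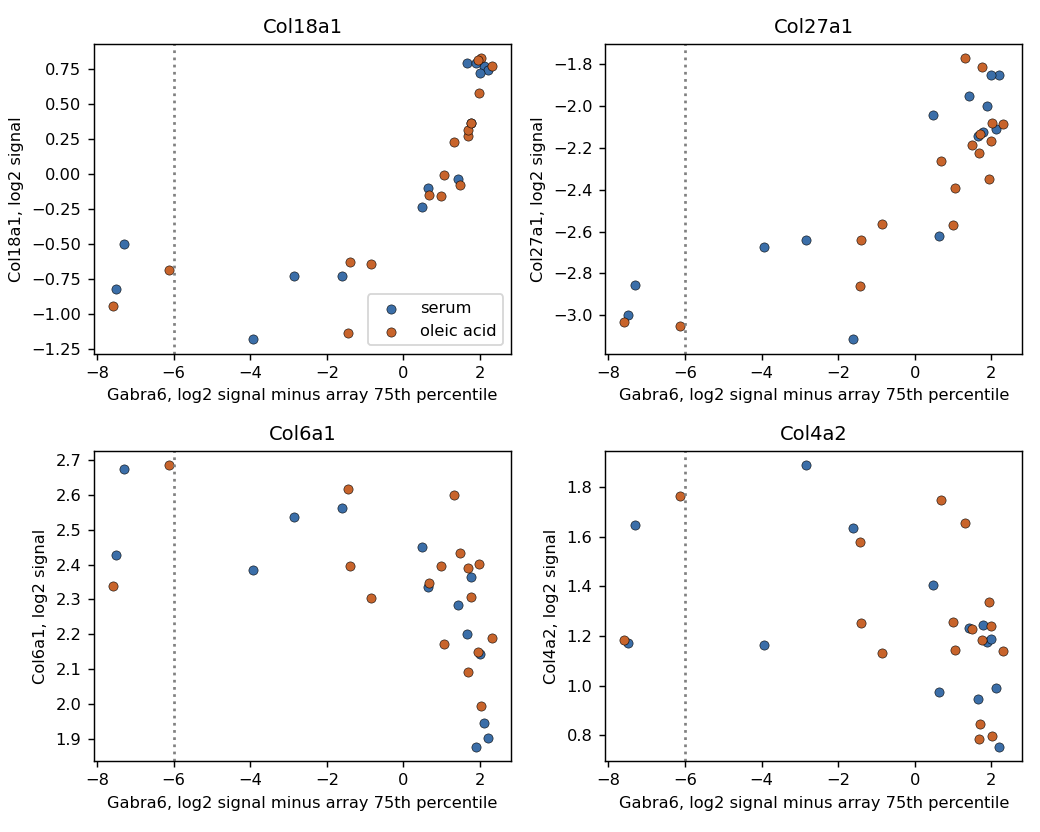
Scaled log2 signal of Col18a1, Col27a1, Col6a1 and Col4a2 against that of Gabra6, 1 point per brain, coloured by treatment; the dotted line at -6 separates the 4 arrays low in Gabra6. Col18a1 and Col27a1 are low where Gabra6 is low and rise with it among the other 27 brains, and Col6a1 and Col4a2 run the other way with more scatter.

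Over the 35 genes, 17 had a positive and 18 a negative r with the cerebellum list. Of these, 5 lay above 0.6 and 2 below -0.6, beside 4.45% and 5.19% of all tested genes. The list with the highest r for a gene was cerebellum for 10 genes, endothelial for 8, astrocyte for 5, bone and cartilage for 3, skeletal muscle for 3, pericyte and smooth muscle for 2, choroid plexus for 2, oligodendrocyte for 1 and meningeal and perivascular fibroblast for 1 (Col11a1, r of 0.52). Some of these highest r were low, such as 0.22 for Col14a1 and 0.29 for Col19a1 (cerebellum) and 0.20 for Col6a4 (astrocyte). In the bone and cartilage and skeletal muscle lists, 4 and 3 of 7 tested genes were above background on all arrays. The best list was not counted over all genes, so these counts are no result about the collagens. The classical meningeal chains did not form a tight set. Col1a1 and Col1a2, the chains of type I collagen, had r of 0.58 (0.38 with slide removed), Col1a2 and Col3a1 0.41, and Col1a1 and Col3a1 0.03. Their mean had r of 0.18 with the fibroblast list, of which all 20 genes were tested and 16 were above background on all arrays. The labels do not say whether the meninges were kept with the brains.

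Genes of 1 collagen molecule or 1 locus varied together in some cases and not in others. Col4a1 with Col4a2 had r of 0.82 and Col6a1 with Col6a2 0.82, but Col4a5 with Col4a6 had 0.37, Col8a1 with Col8a2 -0.21 and Col11a1 with Col11a2 0.18. Among the type IX chains, Col9a2 with Col9a3 had 0.36 and Col9a1 with Col9a2 -0.39. Some genes of different molecules were closer: Col20a1 with Col9a2 had 0.83, Col12a1 with Col24a1 0.79 and Col20a1 with Col23a1 0.76. Col20a1 had r of -0.80, Col9a2 of -0.69 and Col23a1 of -0.63 with the log2 75th percentile of the array. In 6 genes the probe used and another were both above background on all arrays, which gave 9 pairs. Their r ran from -0.10 to 0.96, with a median of 0.32. Col4a6 (-0.10), Col16a1 (-0.10 and 0.09) and Col23a1 (0.10) agreed least. The other such pair of Col23a1 had 0.52, and the pair of Col20a1 had 0.45.

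The comparison the study was set up for, oleic acid against serum, gave no call among the collagens. At 1, 1.5, 3, 4, 18 and 24 h, 0 of 35 genes passed limma's test at an adjusted p under 0.05; percent called over all genes was 0 at each time but 4 h, where it was 0.00397. The mean over the 6 times and the treatment by time test also called 0 of 35 (0% of all genes each). At an unadjusted p under 0.05, 0, 2, 2, 1, 1 and 2 genes passed at the 6 times, 1 for the mean and 4 for the treatment by time test, against 4.84%, 5.28%, 4.85%, 3.04%, 7.28%, 6.58%, 4.56% and 5.44% of all genes. The median difference over the 35 genes was 0.05, -0.02, 0.03, -0.04, 0.07 and -0.02 at the 6 times and 0.01 for the mean, beside 0.00, -0.01, 0.02, 0.01, -0.04, -0.04 and -0.01 over all genes. Scaling to the array median moved the median of all genes at 3, 4, 18 and 24 h by 0.10, -0.20, -0.14 and 0.11, and differences at those times carry that uncertainty.

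Serum and oleic acid values were fully separate for 1, 3, 6, 5, 12 and 9 of the 35 genes at the 6 times, against 9.90%, 10.6%, 17.7%, 18.1%, 52.4% and 28.8% of all genes. The count at 18 h includes Col17a1, which entered the test only through the 18 h oleic acid group, where it is high. The median standard error (SE) of a difference was 0.20 at 1 h, 0.25 at 18 h and 0.09 for the mean over the 6 times. Mean differences (oleic acid minus serum) over 14 serum and 17 oleic acid mice are given for 6 chains of types I, III, IV and VI. Col6a2 is not among these chains. The differences were -0.04 ± 0.07 (SE) for Col4a1, -0.03 ± 0.10 for Col4a2 and 0.04 ± 0.09 for Col6a1. For the fibrillar chains they were -0.04 ± 0.10 for Col1a1, -0.11 ± 0.06 for Col1a2 and -0.11 ± 0.07 for Col3a1. The differences of Col1a2 and Col3a1 were larger than their SE and those of the other 4 smaller, and none of the 6 passed limma's test.

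**Figure D4:**
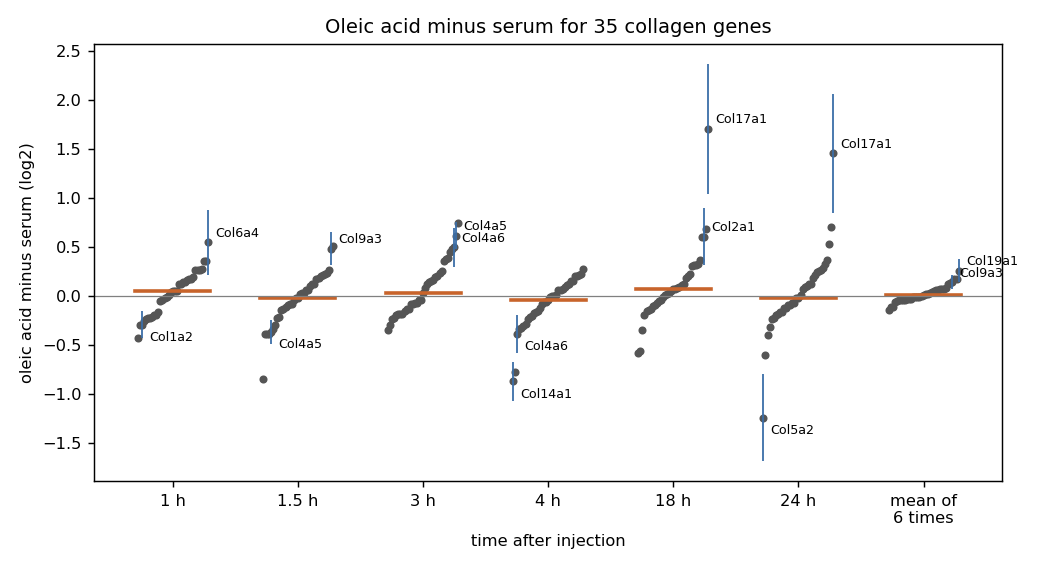
Oleic acid minus serum on the log2 scale for the 35 tested collagen genes at each time and for the mean over 6 times; points are genes in order of their difference, the bar is the median gene, and the names and SE bars mark the pair of genes with the smallest p in each comparison. Medians lie between -0.04 and 0.07, and the points beyond 1 from 0, at 18 and 24 h, are the dim genes Col17a1 and Col5a2. Col17a1 entered the test only through the 18 h oleic acid group, where it is high. Its mark at 18 h is thus no support for a difference. At 24 h Col17a1 was well above background on no array of either treatment.

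Col4a5, a type IV chain of specialised basement membranes on the X chromosome (probe at mm9 chrX:138123547-138123606), had the smallest p of all collagens at 3 h. The serum brains were at -3.24 and -2.85 and the oleic acid brains at -2.61, -2.35 and -2.34. The groups did not overlap, the difference was 0.61 ± 0.14 (0.57 within slide 3), and limma's adjusted p was 0.454. At 1.5 h the order was the reverse, with serum at -2.36, -2.47 and -2.40 and oleic acid at -2.73, -2.84 and -2.77, a difference of -0.37 ± 0.12 and a limma adjusted p of 0.783. Neither passed, and the limma treatment by time test of Col4a5 had an adjusted p of 0.816. Its neighbour Col4a6 differed by 0.50 ± 0.20 at 3 h, with an adjusted p of 0.938 by limma. That value is from 1 of 2 Col4a6 probes, both above background on all 31 arrays, which had r of -0.10 with each other.

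The larger differences at late times were in dim genes. Col5a2, a type V chain that joins type I fibrils, was at -2.58 and -4.87 in the 24 h serum brains and at -5.17, -5.02 and -4.71 in the oleic acid brains; 1 serum brain stood apart and the other lay among the treated. The difference was -1.24 ± 0.45 with a limma adjusted p of 0.707. Without serum 24 h replicate 2, which leaves the high brain as the only serum sample and assumes that it varies like the other groups, it was -2.38 ± 0.41 with a limma adjusted p of 0.00714, and with slide as a fixed block the adjusted p was 0.000319. Both calls rest on the single serum brain at -2.58.

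Col17a1, a transmembrane collagen of hemidesmosomes, was not well above background in either 18 h serum brain and was so in both oleic acid brains. Serum values were -7.17 and -5.99 and oleic acid values -4.88 and -4.86, which do not overlap. The 18 h oleic acid group is the only group with Col17a1 well above background on all its arrays, so the gene entered the test through the group in which it is high, and its difference there is given as values only. Col14a1, a FACIT collagen of fibril surfaces, was at -4.22 and -4.51 in the 4 h serum brains and at -5.20, -5.08 and -5.43 in the oleic acid brains, all 3 of them not well above background. Each oleic acid brain was then given the higher of its own value and the lowest signal well above background on that array. Serum was 1.74-fold higher on those values, which is no minimum for the gene. The limma adjusted p on the measured values was 0.586. The brighter Col14a1 probe, left out for its 1 flagged spot, differed by 0.28 the other way, and the probes had r of 0.17.

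Time after injection gave a few calls. Of the 35 genes, 4 passed the F-test of time over both treatments (11.4%), against 35.8% of all genes. They were Col4a5 (limma adjusted p of 0.00200), Col5a3 (0.00995), Col4a1 (0.0434) and Col11a1 (0.0492). In serum mice 1 gene passed (Col4a5, 0.0139) against 10.5% of all genes, and in oleic acid mice 3 passed (Col5a3, 0.0204; Col4a5, 0.0297; Col14a1, 0.0339) against 7.06%. Time and slide overlap in this design, and with slide as a fixed or as a random block no collagen passed in any of the 8 comparisons between times. For Col4a5 over both treatments the adjusted p was then 0.690 and 0.0829, and for Col5a3 0.659 and 0.152. Without the 4 arrays low in Gabra6, Col4a5 (adjusted p of 0.00898 by limma) and Col5a3 (0.0108) passed the F-test over both treatments and Col4a1 and Col11a1 did not. In serum mice the call of Col4a5 was lost without serum 3 h replicate 1 (0.0736 by limma), and in oleic acid mice the call of Col14a1 was lost in 9 omissions of 1 array, that of Col4a5 in 7 and that of Col5a3 in 3 (oleic acid 4 h replicate 1, 18 h replicate 1 and 18 h replicate 2). Without the 4 arrays low in Gabra6, limma's adjusted p in oleic acid mice was 0.184 for Col14a1, 0.111 for Col4a5 and 0.0293 for Col5a3. Over both treatments Col11a1 lost its call in 25 of the 31 fits that left out 1 array, and Col4a1 in 18.

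**Figure D5:**
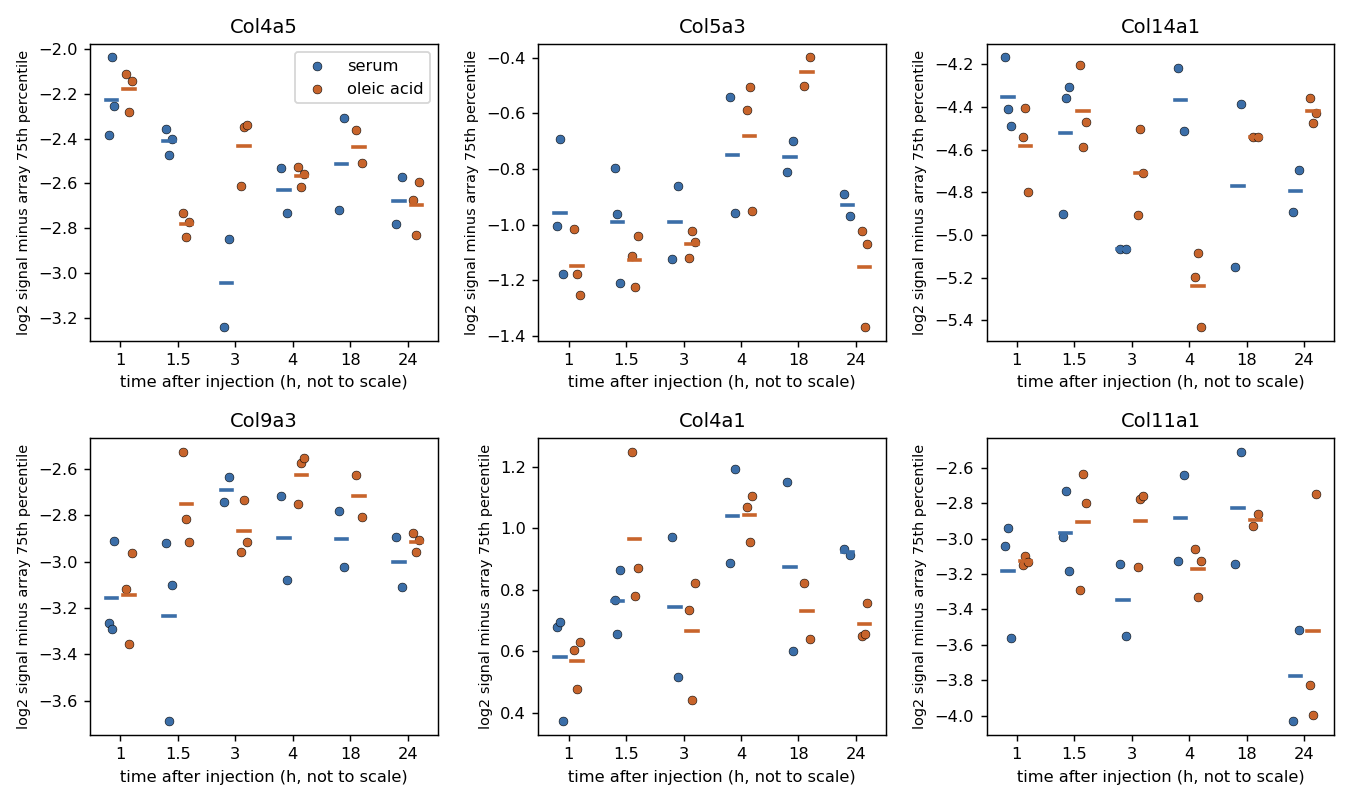
Scaled log2 signal of Col4a5, Col5a3, Col14a1, Col9a3, Col4a1 and Col11a1 in each of 31 brains by hours after injection; points are brains and bars are group means of serum (blue) and oleic acid (orange). Col4a5 is highest at 1 h, Col5a3 is highest at 4 and 18 h and back near its early level at 24 h, and Col11a1 is lowest at 24 h, where 4 of 5 brains lie at or below -3.52 and 1 at -2.75.

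Col4a5 was highest at 1 h. At 1 h serum brains were at -2.38, -2.04 and -2.26 and oleic acid brains at -2.11, -2.28 and -2.14. At 4 h they were at -2.53 and -2.73 and at -2.52, -2.62 and -2.56. All 1 h brains lie on slide 1 and all 4 h brains on slide 4, so time and slide cannot be told apart here. Means with equal weight for the treatments were -2.20, -2.60, -2.74, -2.60, -2.47 and -2.69 at the 6 times. From 1 and 1.5 h to 3 and 4 h the difference was -0.27 ± 0.07 (limma adjusted p of 0.0127), and it was -0.10 and not called under normexp background correction.

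Col5a3, the least common chain of type V collagen, stood high at 4 and 18 h. At 18 h serum brains were at -0.81 and -0.70 and oleic acid brains at -0.50 and -0.40. At 24 h serum brains were at -0.89 and -0.97 and oleic acid brains at -1.02, -1.37 and -1.07. Between oleic acid brains of 24 and 18 h, which lie on 1 slide, the difference was -0.70 ± 0.16. No gene passed that comparison (0% of all genes; 3 of 35 collagens at an unadjusted p under 0.05, against 2.08%), and limma's adjusted p for Col5a3 was 1.00. Col5a3 had r of 0.67 with the cerebellum list and Col4a5 0.54. Both passed the F-test over both treatments without the 4 arrays low in Gabra6. Gabra6 still varied among the other 27 arrays, from -3.94 upward, so that omission does not remove differences in cerebellar content. The part of cerebellar content in these time courses was not tested.

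From 1 and 1.5 h to 3 and 4 h, 3 of 35 genes passed limma's test (9.49% of all genes, 6.73% higher and 2.77% lower). Besides Col4a5, Col14a1 was lower (-0.37 ± 0.10, limma adjusted p of 0.0170) and Col9a3, a FACIT chain of type IX, was higher (0.30 ± 0.09, 0.0337). Col14a1 was at -5.06 and -5.06 in serum and at -4.91, -4.50 and -4.71 in oleic acid brains at 3 h, against -4.17, -4.41 and -4.49 and -4.54, -4.41 and -4.80 at 1 h. In 2 of its 4 later groups no array was well above background. With values replaced there in the same way, Col14a1 was 1.27-fold lower at 3 and 4 h. It was 0.01 higher, not lower, under normexp correction, and without serum 4 h replicate 2, the 1 omission that ended the call, limma's adjusted p was 0.0595.

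Col9a3 was at -3.27, -3.29 and -2.91 in serum and -3.12, -3.36 and -2.96 in oleic acid brains at 1 h, and at -2.71 and -3.08 and at -2.75, -2.57 and -2.55 at 4 h. The 2 sets of brains overlapped through 1 serum brain of 4 h and 2 brains of 1 h, and 11 of the 31 omissions of 1 array ended the call. Its call was also lost with quantile normalization (adjusted p of 0.0835 by limma), with median scaling (0.216) and with no filter on dim probes (0.0555). Without the 4 arrays low in Gabra6, none of the 3 genes passed: the adjusted p by limma was 0.0671 for Col4a5, 0.135 for Col14a1 and 0.112 for Col9a3, with differences of -0.27, -0.31 and 0.32. From 1 and 1.5 h to 18 and 24 h 0 of 35 passed limma's test (6 at an unadjusted p under 0.05) against 11.2% of all genes (6.23% higher, 5.00% lower), and from 3 and 4 h to 18 and 24 h 0 (0 unadjusted) against 12.7% (4.95% higher, 7.71% lower). Between serum brains of 18 and 4 h, on 1 slide, 0 passed (0 unadjusted) against 0.928%.

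The enzymes, partners and receptors of collagen were read from 6 lists with 66 tested genes. Oleic acid against serum called 0 of 66 at each time, for the mean and for the treatment by time test (limma). At an unadjusted p under 0.05, 2, 5, 6, 1, 7, 5, 3 and 7 passed, or 3.03%, 7.58%, 9.09%, 1.52%, 10.6%, 7.58%, 4.55% and 10.6%, beside 4.84%, 5.28%, 4.85%, 3.04%, 7.28%, 6.58%, 4.56% and 5.44% of all genes. The median of the 66 for the mean difference was -0.03, beside -0.01 over all genes. For the mean over the 6 times the smallest unadjusted p in each of the folding, basement membrane and fibril partner lists belonged to P4ha1, a prolyl hydroxylase (-0.22 ± 0.08), Sparc, a collagen-binding protein (-0.19 ± 0.08), and Fn1, fibronectin (-0.13 ± 0.06), each with a limma adjusted p of 0.998.

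Over time, 28 of the 66 (42.4%) passed the F-test over both treatments, beside 35.8% of all genes: 6 of 17 modification and folding genes, 6 of 11 processing and crosslinking genes, 2 of 6 receptors, 5 of 13 basement membrane partners, 5 of 10 fibril partners and 4 of 9 breakdown genes. Between times the shares called were 7.58% from 1 and 1.5 h to 3 and 4 h, 13.6% from 1 and 1.5 h to 18 and 24 h and 13.6% from 3 and 4 h to 18 and 24 h, near the 9.49%, 11.2% and 12.7% of all genes, so the genes named next are single genes and not a result about the lists. From 1 and 1.5 h to 3 and 4 h 5 rose and 0 fell: P4ha2 (0.26 ± 0.06), Leprel4 (0.24 ± 0.07), Adamts14, a procollagen peptidase (0.47 ± 0.13), Pcolce2, an enhancer of procollagen processing (0.29 ± 0.08), and Fbn1, fibrillin (0.38 ± 0.08). From 1 and 1.5 h to 18 and 24 h 6 rose and 3 fell, among them Bgn, the proteoglycan biglycan (0.64 ± 0.14), Loxl2, a crosslinking oxidase (0.55 ± 0.13), Mmp9, a gelatinase (0.40 ± 0.10), Timp2 (-0.34 ± 0.10) and Timp3 (-0.29 ± 0.07), inhibitors of such enzymes. From 3 and 4 h to 18 and 24 h 3 rose and 6 fell, with Pcolce2 (-0.63 ± 0.08) and Fbn1 (-0.52 ± 0.09) lower and P4ha1 (0.49 ± 0.10) higher. These time calls, like those of the collagens, overlap with slide.

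By r over 31 arrays with the mean of Col4a1 and Col4a2 on residuals from group means, the genes most like the pair were Ly6e (0.96), Crybb1 (0.93), Nrgn (0.93), Clip2 (0.92), Ebf4 (0.92), Tie1 (0.92), Ptk2b (0.92), Ubl7 (0.92), Nptx2 (0.92) and Ptp4a3 (0.91); Tie1 is an endothelial receptor, and Nrgn is a postsynaptic protein of forebrain neurons. To the mean of Col1a1, Col1a2 and Col3a1 the most alike were E2f2 (0.61), Bglap2 (0.58), Cad (0.57), Ppic (0.57) and Mfap5 (0.57), after 40 clone and transcript identifiers were passed over. Mfap5 is a microfibril protein, and Bglap2 encodes osteocalcin of bone. The fifth-best gene thus reached 0.92 for the type IV pair and 0.57 for the fibrillar chains.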

How the data were processed

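RNA of 31 whole brains was measured on 1 single-colour array each. The authors deposited scanner files with processed, mean and background intensity and flags per spot, made in Agilent Feature Extraction (10.5.1.1 in the submitters' processing notes). Their deposited table holds log2 values (column medians 6.13) that followed the log2 mean intensity at r of 0.998 or more; it served as an alternative. Probe coordinates are mm9, per the file headers; exons and UTRs were not annotated here.

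Processed intensities were put on a log2 scale and each array's 75th percentile over non-control spots was subtracted; non-uniform spots were set to missing and spots of 1 probe averaged. Of 55681 probes, 35653 passed the background filter and 35499 of them were measured on all arrays, giving 25204 genes with 1 probe each. limma 3.58.1 in R 4.3.3 was fitted with 12 group means (19 residual degrees of freedom) and Benjamini-Hochberg adjustment over all genes at 0.05, and was tested on simulated data. In the simulated data genes were drawn independently and 200 genes were changed. At 1 h 2% of them were called for a log2 change of 0.5 and 55% for a change of 1. At 18 h the shares were 3.5% and 45.5%, and for the mean over the 6 times 72% and 94%. The number of arrays limits the precision.

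Members, marker lists, partner lists and tests were chosen with earlier results of these data known. Any collagen may be named; partner genes are named past the threshold, or as the 2 smallest p of a list where none passed, and the 10 highest r to each core as most alike, of which not all are printed. Alternatives covered background correction, scaling, filter, probe choice, moderation, slide and replicate blocks, and each array left out.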

Additional observations from a re-analysis of the deposited data

How the results depend on the processing

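The 0 collagen calls for oleic acid against serum held under all 12 other settings at 1, 1.5, 3, 4 and 18 h and for the mean; with slide as a fixed block 1 gene (Col5a2) was called at 24 h and 1 in the treatment by time test. Leaving out 1 array gave 0 to 1 calls at 24 h and 0 elsewhere. With the replicate block, collagen calls stayed at 0 in each treatment comparison; the numbers are not stated to pair mice, and same-numbered samples correlated from -0.62 to 0.39 (median -0.02, 3 of 14 pairs above 0.1).

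Time calls depended on the processing. From 1 and 1.5 h to 3 and 4 h the 3 calls became 0 under normexp, 0 with slide as a fixed block, 0 as a random block, 1 with a trended robust prior and 0 without the 4 arrays low in Gabra6 (an alternative chosen after seeing the data); Col14a1 turned to 0.014 under normexp. Col9a3 lost its call under 8 of the settings, Col14a1 under 6 and Col4a5 under 4. The 4 calls of the F-test over both treatments became 2 under normexp, 8 in the deposited table, 2 with no filter, 0 and 0 with slide as a fixed and random block and 2 without the 4 arrays. The serum F-test gave 0 under normexp, 2 with quantile normalization, 3 with median scaling, 2 in the deposited table and 0 and 0 with slide, against 1. The oleic acid F-test gave 1 under normexp, 1 with no filter, 0 and 0 with slide, 1 with the trended prior and 1 without the 4 arrays, against 3. Leaving out 1 array gave 2 to 7 calls over both treatments, 0 to 2 in serum, 0 to 4 in oleic acid, 2 to 4 from early to 3 and 4 h, 0 to 2 from early to late and 0 to 1 from 3 and 4 h to late. Over all genes, the F-test over both treatments called 130 to 9570 genes under the alternatives (main 9012) and the 3 and 4 h comparison 3 to 2506 (main 2393), the lowest with slide in the model. The mean r over the 595 collagen pairs was 0.21 under normexp, 0.087 with quantile normalization and 0.24 with median scaling, against 0.05. The cause of these shifts was not tested. Signal over background limits Col17a1, Col8a1, Col14a1 and Col5a2.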
